A study of Homo sapiens with 6 samples.

Results

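The apoptotic arm of E2F1 was examined in MDA-MB-231, a cell line from a human triple-negative breast cancer, through 7 genes: TP73, APAF1, CASP8, BBC3, PMAIP1, BCL2L11 and BCL2. They were chosen by name from 19970 protein-coding genes on the autosomes and X, with earlier results of these data known. Chromatin immunoprecipitation with sequencing (ChIP-seq) had been performed with an E2F1 antibody in cells left untreated, after 72 h in DMSO, the solvent, and after 72 h in 1 µM GSK126, a drug that blocks the methyltransferase EZH2. It had also been performed with an antibody against H3K27me3, the repressive mark that EZH2 deposits on histone H3, in cells transduced over 24 h with either a control shRNA or shE2F1, which targets E2F1 transcripts, and kept for 72 h in 2 µg/ml puromycin. An input library of untreated cells was not analysed here. All libraries came from the same cell line, and each group is 1 library, so no difference between groups carries a replicate check. The lowering of E2F1 by shE2F1 was not checked here, because only peak lists were used. In bulk chromatin, more bound cells and more binding per cell cannot be told apart.

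E2F1 is the member of the E2F family best known for driving both proliferation and cell death. It switches on genes of DNA replication when cells enter S phase, and, when its activity is unchecked by the retinoblastoma protein, it is known to raise transcription of several death genes. TP73 encodes p73, a relative of p53. APAF1 forms the apoptosome, on which cytochrome c activates the initiator caspase-9. CASP8 encodes the initiator caspase of death receptors. BBC3 (PUMA), PMAIP1 (NOXA) and BCL2L11 (BIM) are BH3-only proteins, which neutralize anti-apoptotic proteins of the BCL2 family and thereby open the mitochondrial route to death.

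The E2F motif was read as TTNNCGC with C or G at each N, on either strand, and matches may overlap. Sequences are shown for the promoters that differ most in this respect, 5′ to 3′ on the strand of the gene, in hg38 coordinates, with motif letters in capitals. The first 3 are the 250 bases before a RefSeq (GRCh38.p14) start site that contains the strongest GSK126 summit. They are TP73 (chr1:3652266-3652515, + strand), which carries the motif, and APAF1 (chr12:98645040-98645289, +) and BCL2L11 (chr2:111120664-111120913, +), which do not.
TP73: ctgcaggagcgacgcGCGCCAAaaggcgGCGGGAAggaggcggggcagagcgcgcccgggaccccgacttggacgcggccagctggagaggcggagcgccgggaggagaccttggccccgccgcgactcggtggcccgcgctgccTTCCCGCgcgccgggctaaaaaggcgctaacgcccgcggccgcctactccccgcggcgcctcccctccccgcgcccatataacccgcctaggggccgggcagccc
APAF1: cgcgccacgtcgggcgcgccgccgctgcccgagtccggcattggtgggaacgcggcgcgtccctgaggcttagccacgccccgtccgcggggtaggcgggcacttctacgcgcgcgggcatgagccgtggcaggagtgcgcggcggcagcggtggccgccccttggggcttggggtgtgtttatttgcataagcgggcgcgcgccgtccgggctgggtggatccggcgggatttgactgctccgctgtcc
BCL2L11: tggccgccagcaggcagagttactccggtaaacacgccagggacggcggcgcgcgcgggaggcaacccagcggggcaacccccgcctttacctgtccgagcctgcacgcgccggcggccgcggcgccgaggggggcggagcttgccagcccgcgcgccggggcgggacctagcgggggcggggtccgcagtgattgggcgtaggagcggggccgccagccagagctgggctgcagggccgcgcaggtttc

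The other sequences are 201 bases centred on a GSK126 summit. PMAIP1 (chr18:59899582-59899782, +) is shown because its strong peak has no motif, and CASP8 (chr2:201234106-201234306, +) and BBC3 (chr19:47228022-47228222, −) because their summits have one nearby.
PMAIP1: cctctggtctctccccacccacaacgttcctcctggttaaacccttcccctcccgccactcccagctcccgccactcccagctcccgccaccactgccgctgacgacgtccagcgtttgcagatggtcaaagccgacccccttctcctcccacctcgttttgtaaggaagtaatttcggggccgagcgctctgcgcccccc
CASP8: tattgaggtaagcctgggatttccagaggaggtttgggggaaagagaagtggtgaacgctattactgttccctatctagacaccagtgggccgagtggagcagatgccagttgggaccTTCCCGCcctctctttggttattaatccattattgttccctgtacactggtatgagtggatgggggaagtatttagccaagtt
BBC3: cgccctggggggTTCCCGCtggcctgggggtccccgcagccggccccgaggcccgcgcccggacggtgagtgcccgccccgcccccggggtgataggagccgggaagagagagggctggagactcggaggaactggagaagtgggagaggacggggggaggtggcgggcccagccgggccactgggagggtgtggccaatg

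TP73 upstream sequence held 3 matches. TTCCCGC lay at bases 146 to 152, with its centre 1 bp from the GSK126 summit and 98 bases before the start site. Those at bases 29 to 35 and 16 to 22 were read on the opposite strand. Of 35116 RefSeq windows of this length 10.9% held a match, and of the 11 windows listed for the 7 genes only this TP73 window did.

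An E2F1 peak was assigned to a promoter when its summit lay within 1 kb of any transcription start site (TSS) of the gene in GENCODE release 44. Promoter peaks were found at 2 of the 7 genes in untreated cells, TP73 and PMAIP1, against 5.85% of all protein-coding genes. In DMSO they were found at 6 of 7, all but CASP8, against 33.5% of all genes. In GSK126 they were found at 7 of 7, against 51.5%. APAF1, BCL2L11, BBC3 and BCL2 had a promoter peak in DMSO and in GSK126 without one in the untreated library, a pattern shared by 27% of all genes, and CASP8 had one in GSK126 only, as did 18.6%. The depth of the libraries differed too, the untreated one being the shallowest and DMSO slightly deeper than GSK126. The genome-wide background, in fragments per base position, was 0.668 in untreated, 1.82 in DMSO and 1.70 in GSK126.

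**Figure D1:**
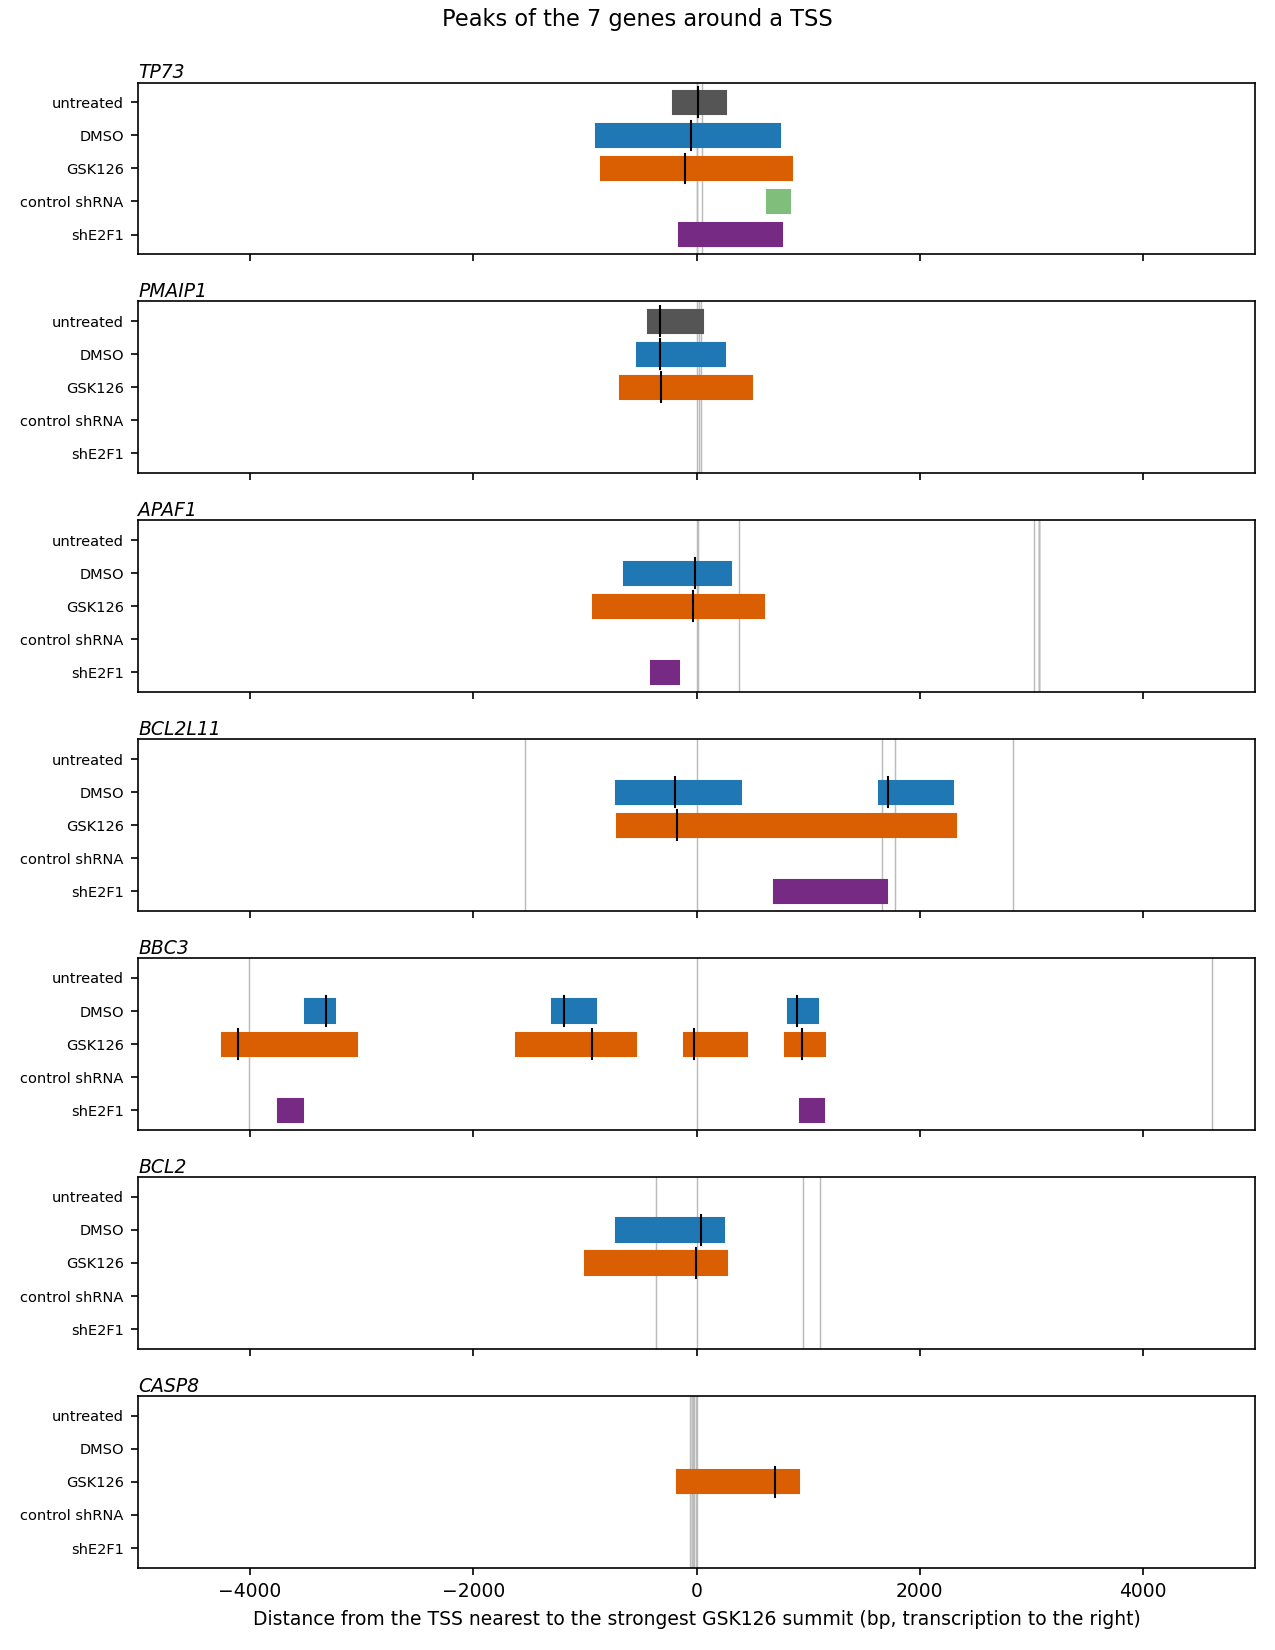
Peaks of the 7 genes drawn against the distance in bp from the TSS nearest to the strongest GSK126 summit, with transcription to the right. Boxes are peaks of each of the 5 libraries, black ticks are E2F1 summits, and grey lines are annotated TSSs. TP73 and PMAIP1 carry E2F1 peaks in all 3 E2F1 libraries, and PMAIP1, BCL2 and CASP8 carry no H3K27me3 peak.

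TP73 had the highest E2F1 fold of the 7 genes in DMSO and in GSK126. The gene (ENSG00000078900.15) lies on chromosome 1 from 3652516 to 3736201 on the plus strand and has 9 annotated TSSs. The authors' fold enrichment is the ratio of fragments at the summit to the local background, with 1 added to each. At TP73 it came to 6.82 without treatment, 17.0 in DMSO and 26.3 in GSK126. The local background there was 0.905, 1.82 and 1.70 fragments, so the added 1 lowers the fold most in the untreated library. The −log10 q of these peaks was 6.45, 45.1 and 82.1. Among genes with a promoter peak in the same library, the fold of TP73 stood at percentile 31.4 in the untreated library, 93.8 in DMSO and 94.8 in GSK126. These sets held 1168, 6698 and 10279 genes, so the percentiles are not on a common scale across libraries. Within each set, TP73 was below the middle in untreated cells and near the top in the other libraries.

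The TP73 peaks ran from 3652306 to 3652778 in untreated cells, from 3651619 to 3653265 in DMSO and from 3651661 to 3653370 after GSK126. The untreated summit lay 12 bp downstream of a TSS in a UTR exon, whereas the DMSO and GSK126 summits lay 47 bp and 103 bp upstream of the first TSS. The peaks covered the 3 TSSs at the upstream end of the gene, where transcripts of the full-length, transactivating form of p73 start. No peak in any of the 5 libraries lay within 1 kb of any internal TSS. These include the TSS at 3690672, in the region from which shorter forms lacking the transactivation domain are known to start. WRAP73, on the opposite strand, starts 196 bp from TP73, so the E2F1 peak cannot be assigned to one gene rather than the other.

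PMAIP1 was the other gene bound in all 3 E2F1 libraries. It lies on chromosome 18 from 59899996 to 59904305 on the plus strand. Its peak ran from 59899560 to 59900052 in untreated cells (fold 12.0) and from 59899467 to 59900247 in DMSO (fold 9.41), and in GSK126 between 59899314 and 59900491, where the fold was 16.1. PMAIP1 was the gene of the 7 with the higher fold in untreated cells, at percentile 78.7 of promoter-bound genes, and it stood at percentile 77.7 in DMSO and 85.8 in GSK126. The summits lay 327, 325 and 314 bp upstream of the first TSS, within the sequence shown above, and their spread of positions was narrower than at TP73. None of these summits had an E2F motif within 100 bp.

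APAF1 lies on chromosome 12 from 98645290 to 98735433 on the plus strand and has 11 TSSs, of which the first 3 were within 1 kb of an E2F1 summit. Its peak ran from 98644637 to 98645599 in DMSO, with fold 11.1 and −log10 q 29.6, and from 98644359 to 98645898 in GSK126, with fold 13.9 and −log10 q 41.1. The summits lay 11 bp and 28 bp upstream of the first TSS. IKBIP, read from the opposite strand, starts 177 bp away, so this peak too is shared with a neighbour. The nearest untreated E2F1 peak was 5203 kb from the gene.

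BCL2L11 lies on chromosome 2 from 111119378 to 111168444 on the plus strand. DMSO cells had a peak from 111120192 to 111121309, with a fold of 10.5 and its summit 196 bp upstream of the canonical TSS, and a second peak from 111122549 to 111123208, with a fold of 4.14 and its summit in a UTR exon, 52 bp downstream of a later TSS. In GSK126 a peak from 111120206 to 111123241 spanned both positions, with a fold of 16.6 and its summit 174 bp upstream of the canonical TSS. It was the widest E2F1 peak of the 7 genes, at 3036 bp.

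BBC3 lies on chromosome 19 from 47220822 to 47232766 on the minus strand and differed from the others in having several weak peaks inside the gene. In DMSO the strongest ran from 47226105 to 47226372, in an intron 904 bp downstream of an internal TSS, with a fold of 5.71. The microRNA genes MIR3190 and MIR3191 start within 1 kb of this summit. A further DMSO peak, from 47230424 to 47230699, lay in an intron 694 bp downstream of the canonical TSS with a fold of 3.49. A peak from 47228088 to 47228482 reached a fold of 3.28. Its summit, inside a coding exon, was 1185 bp from the nearest TSS and was not counted as promoter.

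GSK126 peaks were found at the same 3 places in BBC3, with 1 more peak between them. From 47226035 to 47226396 the fold was 7.83, from 47227728 to 47228805 it was 6.37, from 47230232 to 47231436 it was 3.99 and from 47226741 to 47227305 it was 2.88. The summit of the peak at the canonical TSS lay 99 bp upstream of it. At the outermost TSS of BBC3, at 47232766, no peak was called within 1 kb in any of the 5 libraries.

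BCL2, the anti-apoptotic gene of the list, lies on chromosome 18 from 63123346 to 63320128 on the minus strand. Its peak ran from 63319522 to 63320489 in DMSO, with fold 4.78 and −log10 q 5.81, and from 63319494 to 63320766 in GSK126, with fold 12.5 and −log10 q 30.3. The summits lay in UTR exons, 39 bp downstream and 8 bp upstream of the canonical TSS. The fold stood at percentile 29.8 of bound genes in DMSO and 77.1 in GSK126.

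CASP8 lies on chromosome 2 from 201233443 to 201361836 on the plus strand and has 22 TSSs. GSK126 gave its only E2F1 peak, which spanned 201233331 to 201234427 and had a fold of 5.10, a −log10 q of 8.78 and a summit in an intron 700 bp downstream of a TSS. This peak served the 8 TSSs at the upstream end and none of the others, the canonical TSS at 201260536 included. The nearest E2F1 peak in DMSO was 89.9 kb from the gene and the nearest in untreated cells was 904 kb from it. The fold of CASP8 in GSK126 stood at percentile 19.7, the lowest of the 7 genes.

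**Figure D2:**
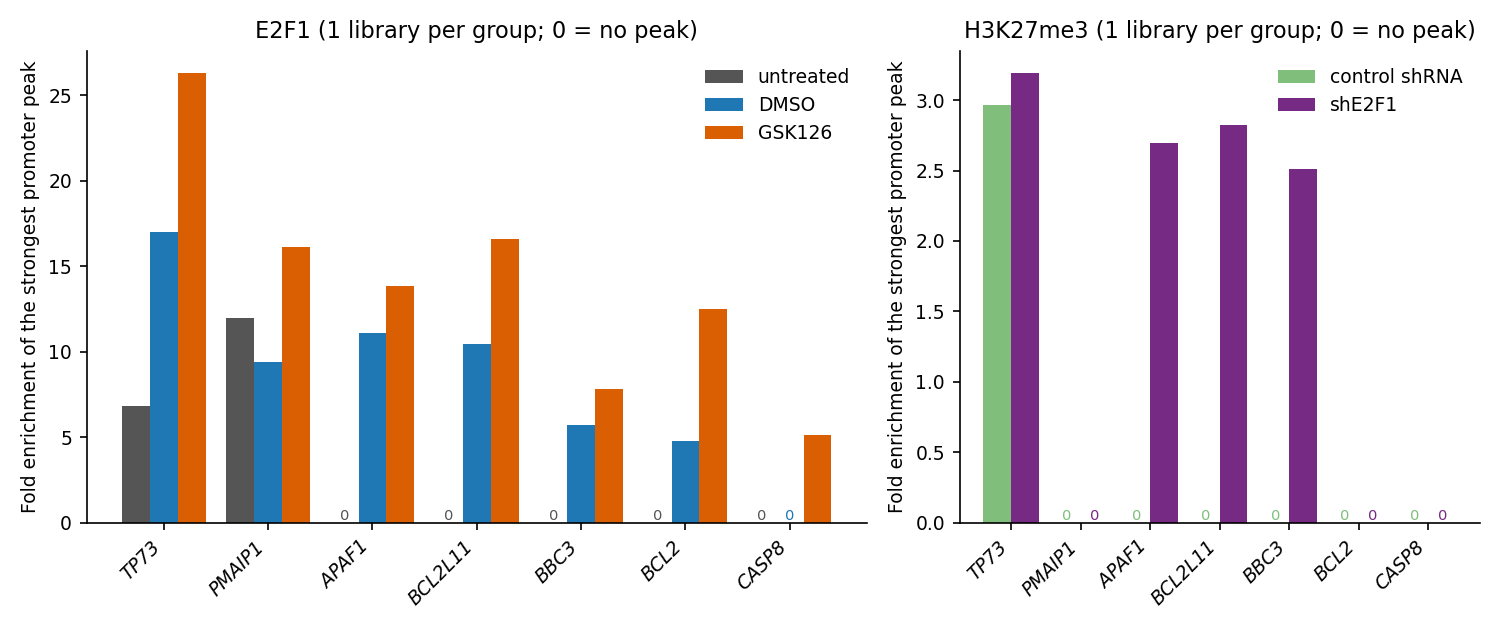
Fold enrichment of the strongest promoter peak of each gene, for E2F1 on the left and H3K27me3 on the right, with a separate linear axis for each. Bars start at 0, each is 1 library without replicates, and 0 marks a gene without a peak. TP73 reaches 26.3 in GSK126, and H3K27me3 folds stay between 2.51 and 3.19 where a peak was called.

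The numbers of fragments behind these folds were recovered from the fold and the p-value of each peak. At TP73 the strongest summit held 12 fragments in untreated cells (exact Poisson 95% interval 6.20 to 21.0), 47 in DMSO (34.5 to 62.5) and 70 in GSK126 (54.6 to 88.4). At PMAIP1 it held 19 (11.4 to 29.7), 50 (37.1 to 65.9) and 81 (64.3 to 101). These intervals cover counting error only. The untreated intervals did not overlap those of DMSO at either gene, as counts that are not adjusted for depth.

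When the DMSO counts were scaled to the untreated background, they came to 17.3 fragments at TP73 and 18.4 at PMAIP1, both inside the untreated intervals. The same scaling gave 15.1 fragments at APAF1, 12.5 at BCL2L11, 12.1 at BBC3 and 6.24 at BCL2, where no untreated peak was called. The 944 untreated peaks at promoters of protein-coding genes held 7 to 98 fragments, with a median of 19, and 35% of them held 15 or fewer. BCL2 therefore lay under the smallest number that made an untreated promoter peak, whereas APAF1, BCL2L11 and BBC3 lay above that number but under the median. CASP8, scaled in the same way from GSK126, came to 9.03 fragments. The part of depth in the missing untreated peaks was not tested.

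**Figure D3:**
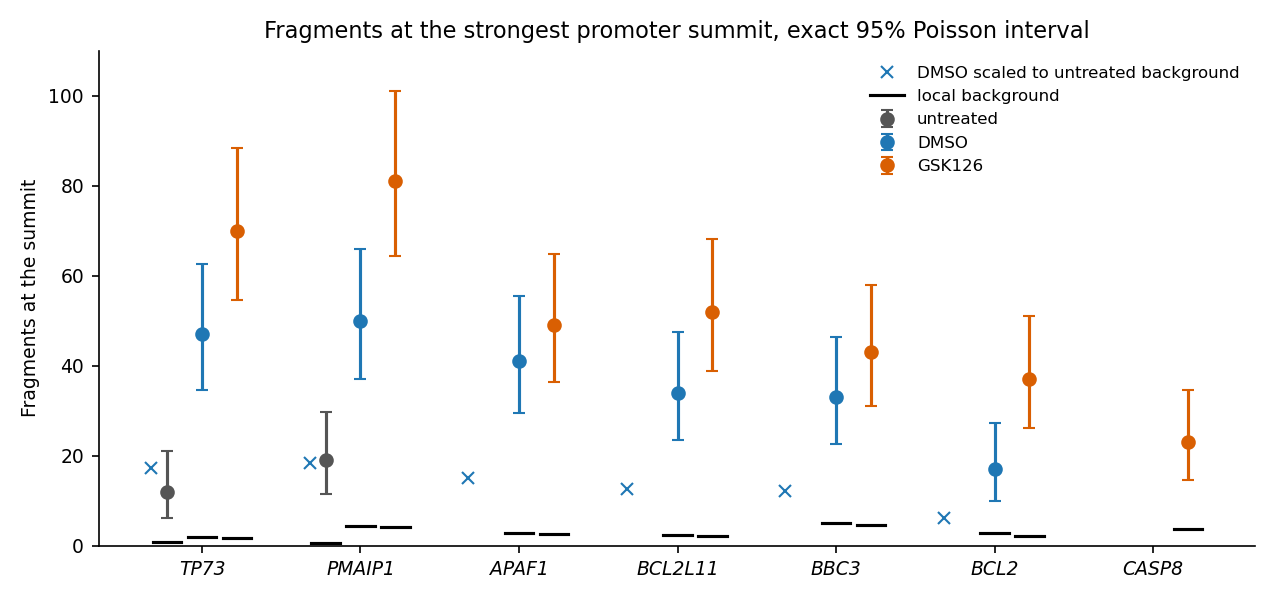
Fragments at the strongest promoter summit of each gene, as dots with exact 95% Poisson intervals, by E2F1 library. Black bars are the local background and crosses the DMSO count scaled to the untreated background. At TP73 and PMAIP1 the crosses, 17.3 and 18.4, fall within the untreated intervals.

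To ask whether inhibition of EZH2 was accompanied by a different E2F1 signal at these promoters, the strongest GSK126 and DMSO peaks were set side by side. The fold was higher in GSK126 at all 6 genes with a peak in both, and at 6354 of the 6539 protein-coding genes with a peak in both. The median log2 ratio was 0.65 at the 6 genes, against 0.73 over the 6539. The ratio reached 1.5 at 4 of the 6, TP73, PMAIP1, BCL2L11 and BCL2, against 67.7% of all such genes, and no gene was lower by this factor, against 0.107% of all. The median ratio of the apoptosis genes was thus close to that of all promoters.

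BCL2 had the largest ratio, 2.61. After dividing summit fragments by the lowest background of each library, the ratio was 2.33 at BCL2 (exact binomial 95% interval, counting error only, 1.28 to 4.41), 1.73 at PMAIP1 (1.20 to 2.52), 1.64 at BCL2L11 (1.04 to 2.60) and 1.59 at TP73 (1.09 to 2.36). At BBC3 the ratio was 1.39 (0.865 to 2.26) and at APAF1 it was 1.28 (0.827 to 1.99). The intervals of the 6 genes overlapped each other, and the summits of each gene were 11 to 56 bp apart between the libraries.

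**Figure D4:**
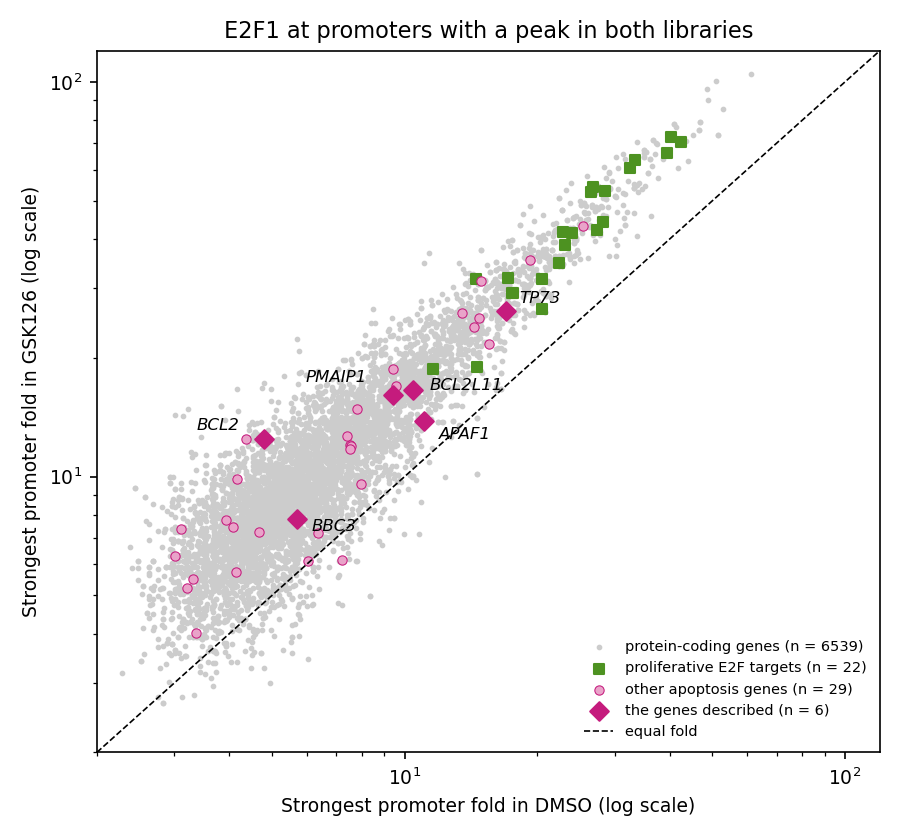
Strongest promoter fold of E2F1 in GSK126 against DMSO, on log axes, for genes with a promoter peak in both libraries. Diamonds are the 6 apoptosis genes, circles other apoptosis genes, squares proliferative E2F targets and grey dots all protein-coding genes. The 6 diamonds lie above the dashed line of equal fold, as do most grey dots.

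H3K27me3 was then compared at the same genes between control shRNA and shE2F1, counting a peak that overlapped the 1 kb on either side of a TSS. In control shRNA 1 of the 7 genes had such a peak, TP73, against 27.1% of all protein-coding genes. In shE2F1 there were 4, TP73, APAF1, BCL2L11 and BBC3, against 51.2%. The 3 genes with a peak in shE2F1 and not in control shRNA were APAF1, BCL2L11 and BBC3, against 26% of all genes, and none had the opposite pattern, against 1.94%. PMAIP1, BCL2 and CASP8 had no H3K27me3 peak at a promoter in either library. The shE2F1 list was also the larger, with 135683 peaks over 178.9 Mb, against 123957 over 143.2 Mb in control shRNA. The part of this difference between the lists in the peaks found in shE2F1 only was not tested.

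At TP73 the control shRNA peak ran from 3653147 to 3653350, in an intron, with mean fold 2.96 and −log10 q 1.25. The shE2F1 peak ran from 3652359 to 3653279 with fold 3.19 and −log10 q 1.67. The peak in shE2F1 thus reached over the first TSSs and held the E2F1 summits of all 3 libraries, whereas the control shRNA peak held none of them. Over all TSSs of WRAP73 the strongest H3K27me3 promoter fold was 5.08 in control shRNA and 8.01 in shE2F1, in peaks that were not among those within 1 kb of a TP73 TSS.

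The APAF1 peak in shE2F1 ran from 98644881 to 98645134, upstream of the gene, with fold 2.69 and −log10 q 1.23. It lay entirely within the E2F1 peaks of DMSO and GSK126 without holding their summits. It ended 156 bp before the nearest APAF1 TSS, and IKBIP had the same fold, so this peak too cannot be assigned to one gene. At BCL2L11 the shE2F1 peak ran from 111121612 to 111122619, with fold 2.82 and −log10 q 1.30, between the E2F1 summits of DMSO. At BBC3 there were peaks from 47226044 to 47226261, with fold 2.51 and −log10 q 1.29, and from 47230714 to 47230938, with fold 2.47 and −log10 q 1.54. The first of them overlapped the strongest E2F1 peak of the gene in DMSO by 157 bp.

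These H3K27me3 peaks were weak. The lists reach down to a −log10 q of 1.01, and the median of the strongest promoter peak per gene in shE2F1 was 2.16. The highest −log10 q stood at percentile 27.2 of genes with a promoter peak at TP73, 20.6 at BBC3, 8.82 at BCL2L11 and 6.08 at APAF1. As a check on other loci, ACTB, which is highly expressed in most cells, had an H3K27me3 promoter peak in both libraries (3.36-fold in control shRNA, 3.59-fold in shE2F1). Of the developmental genes HOXA9, HOXB9, HOXC9 and HOXD9 only HOXA9 had one, in control shRNA, with a fold of 2.75. These loci were named after their values were seen, and expression was not measured here. Whether a peak in these H3K27me3 lists marks a repressed promoter was not tested.

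Across all genes, H3K27me3 promoter peaks in shE2F1 were found at 62.5% of the 1140 genes bound by E2F1 in all 3 libraries, 62.4% of the 5399 bound in DMSO and GSK126 only, 54.6% of the 3717 bound in GSK126 only and 42.1% of the 9527 never bound. In control shRNA these shares were 19.4%, 19.4%, 22.9% and 33.8%. In shE2F1, of the genes bound in all 3 libraries, TP73 had an H3K27me3 promoter peak and PMAIP1 did not. Of those bound in DMSO and GSK126 only, APAF1, BCL2L11 and BBC3 had one in shE2F1 and BCL2 did not. In control shRNA, TP73 alone of the genes described had one.

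Over the gene bodies, E2F1 peaks were found at 2 of the 7 genes in the untreated library, 6 in DMSO and 7 in GSK126, against 5.06%, 35.1% and 53.4% of all genes. They were the promoter peaks named above, except for 1 DMSO peak in BBC3. H3K27me3 peaks over the body were found at TP73 in control shRNA and at TP73, BCL2L11 and BBC3 in shE2F1, against 34.1% and 56.8% of all genes.

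The bodies of the 7 genes were nearly free of H3K27me3 peaks. Together they are 564.3 kb long, of which peaks covered 0.0361% in control shRNA and 0.393% in shE2F1, against 4.49% and 5.73% of all protein-coding gene bodies. BCL2, at 196.8 kb, and CASP8, at 128.4 kb, had no H3K27me3 peak in either library. The nearest one lay 8.23 kb from BCL2 in control shRNA and 6.97 kb in shE2F1, and 89.5 kb and 89.3 kb from CASP8. At PMAIP1 the nearest was 217 kb away in control shRNA and 183 kb in shE2F1.

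The E2F motif lay within 100 bp of the summit at 0 of 2 promoter peaks of the 7 genes in the untreated library, 1 of 8 in DMSO and 3 of 10 in GSK126. Over all peaks at promoters of protein-coding genes these shares were 55.1%, 35.8% and 30.9%. The peaks with a motif within 100 bp of the summit were those of TP73 in DMSO and GSK126, CASP8 in GSK126, with the motif centre 21 bp from the summit, and a peak of BBC3 in GSK126, 85 bp from it. The untreated TP73 peak, from 3652306 to 3652778, also spans the TTCCCGC shown above. Its summit lies more than 100 bp from that motif, so it was not counted. The peaks of PMAIP1, APAF1, BCL2L11 and BCL2 had none, which says only that these letters are absent from the windows searched. GC content in the windows ranged from 48.8% at CASP8 to 84.1% at the canonical start of BBC3.

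The genes were next set beside 48 other apoptosis genes and 22 proliferative E2F targets. Of the other apoptosis genes 6 had an untreated E2F1 promoter peak, 29 had one in DMSO and 36 in GSK126. These are 12.5%, 60.4% and 75% of the 48, against 5.85%, 33.5% and 51.5% of all protein-coding genes. Of the proliferative targets 16, 22 and 22 had one in these libraries. The median fold in DMSO was 9.93 at the 6 bound genes of the 7, 7.41 at the other apoptosis genes, 23.6 at the proliferative targets and 6.03 over all bound genes. In GSK126 it was 13.9, 7.61, 41.5 and 7.78. TP73, with 26.3, stayed below RRM2 with 60.4 and PCNA with 70.5 in GSK126. RRM2 is a subunit of ribonucleotide reductase and PCNA the sliding clamp of DNA replication. CCNE1, a cyclin of the start of S phase, stood at 18.7.

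**Figure D5:**
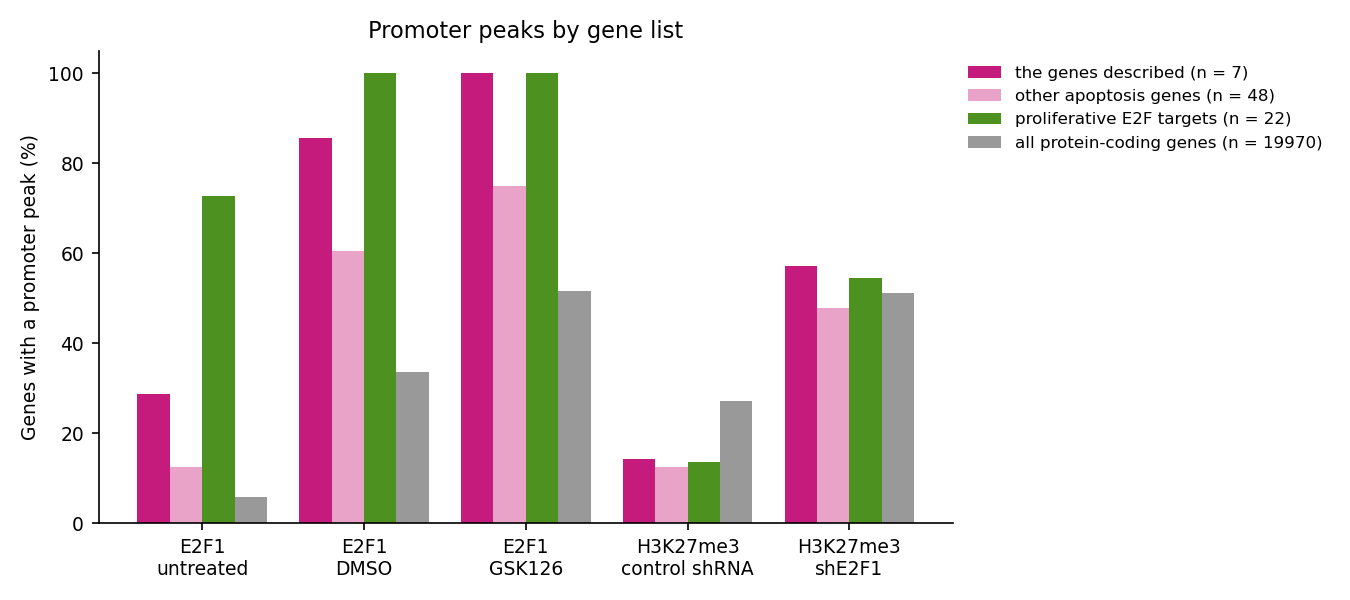
Share of genes with a promoter peak in each of the 5 libraries, in percent, for the 7 apoptosis genes, 48 other apoptosis genes, 22 proliferative E2F targets and 19970 protein-coding genes. In untreated cells the bars stand at 28.6%, 12.5%, 72.7% and 5.85%, and in shE2F1 H3K27me3 at 57.1%, 47.9%, 54.5% and 51.2%.

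Among caspases and their activators, 7 of 9 genes other than APAF1 and CASP8 were bound in DMSO and 8 in GSK126. Of all protein-coding genes 33.5% and 51.5% were. CASP2 had a fold of 12.8 in the untreated library, 25.4 in DMSO and 43.1 in GSK126. CYCS, which encodes cytochrome c, was bound in DMSO with a fold of 9.54 and in GSK126 with 17.0. CASP10, the paralogue next to CASP8, had no E2F1 promoter peak in any of the libraries. H3K27me3 promoter peaks were called in shE2F1 only at 4 of these 9 genes, against 26% of all genes. CASP2 was among the 4, with a fold of 3.10.

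Of the other BH3-only genes, 2 of 5 were bound in DMSO and 3 in GSK126, none in untreated cells. These counts are near the shares of all genes, 33.5%, 51.5% and 5.85%. BAD, which binds BCL2 and BCL-XL, had a fold of 7.50 in DMSO and 12.0 in GSK126, and BMF had 3.11 and 7.36. BIK had a fold of 5.47 in GSK126 only and an H3K27me3 peak in shE2F1 only, with a fold of 2.78. BID and HRK had no E2F1 promoter peak.

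Of the 5 anti-apoptotic relatives of BCL2, BCL2L2 was bound in all 3 libraries, with folds of 5.88, 9.42 and 18.7, and had an H3K27me3 peak in shE2F1 only, with a fold of 3.31. MCL1 was bound only in GSK126, with a fold of 7.22, and its H3K27me3 fold in shE2F1 was 2.71. The pore-forming effector BOK had E2F1 folds of 3.94 in DMSO and 7.77 in GSK126 and an H3K27me3 fold of 3.53 in shE2F1 only. BAX was bound only in GSK126, with a fold of 6.86, but carried the strongest H3K27me3 peaks of the other apoptosis genes, with folds of 10.9 in control shRNA and 12.9 in shE2F1. BAK1 had no promoter peak.

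The caspase inhibitors were bound at 4 of 4 genes in DMSO and in GSK126, against 33.5% and 51.5% of all genes. BIRC5 (survivin), which also serves in mitosis, led them with a fold of 14.7 in DMSO and 25.3 in GSK126. BIRC3 had 6.37 and 7.19, and XIAP had 4.66 and 7.25. BIRC5 had an H3K27me3 promoter peak in both libraries, with folds of 5.72 in control shRNA and 5.56 in shE2F1. BIRC2 had one in shE2F1 only, with a fold of 4.52.

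In the death receptor pathway 7 of 11 genes were bound in DMSO and 8 in GSK126, none of them in untreated cells. Of all protein-coding genes 33.5%, 51.5% and 5.85% were. RIPK1, a kinase recruited to activated receptors, had folds of 7.57 and 11.9, and TRAF2, an adaptor ubiquitin ligase, had 7.53 and 11.8. Both had H3K27me3 peaks in shE2F1 only, with folds of 4.66 and 3.001. TNFRSF10B, a receptor of TRAIL, was the bound gene of this group with a lower fold in GSK126, 6.16 against 7.20 in DMSO.

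In the p53 family and among its regulators 3 of 11 genes were bound in untreated cells, against 5.85% of all genes. PPP1R13L, which encodes the p53 inhibitor iASPP, had folds of 15.01, 19.3 and 35.3 in untreated, DMSO and GSK126. MDM2, the ubiquitin ligase of p53, had 11.6, 15.5 and 21.7, and ATM, the kinase of DNA double-strand breaks, had 6.30, 14.9 and 31.2. MDM2 and PPP1R13B had H3K27me3 peaks in shE2F1 only, with folds of 3.89 and 3.61. TP63, the other relative of TP73, was without a promoter peak throughout.

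Genes with the most similar profile were sought by the Euclidean distance over 5 values, log2 of the strongest promoter fold plus 1 in each library. The genes nearest to TP73 were IPO5, at a distance of 0.281, and ENSG00000286070, at 0.358. Those nearest to PMAIP1 were GPR137C and TXNDC16, which share a promoter peak, at 0.149. NREP and MLPH lay nearest to APAF1 at 0.082 and 0.119, CXCL2 and CELF1 to BCL2L11 at 0.047 and 0.057, NAA15 and NDUFC1 to BBC3 at 0.069, and METAP1 and DDIAS to BCL2 at 0.047 and 0.054. The combination of peaks seen at APAF1, BCL2L11 and BBC3, present in DMSO, GSK126 and shE2F1 only, was shared by 2350 protein-coding genes. That of TP73, present in all 5 libraries, was shared by 216.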

How the data were processed

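Per the study's methods, reads were trimmed with cutadapt 4.5, aligned to GRCh38 with Bowtie2 2.5.2 and peaks were called per library with MACS2 2.2.9.1 at a q of 0.01, with a broad cutoff of 0.1 for H3K27me3. The labels describe sonication, and the methods micrococcal nuclease for histone marks. Of 6 samples, the input was not used here. The authors deposited for each peak a fold enrichment, a ratio with a pseudocount of 1 that is averaged over broad peaks, and the −log10 of the p-value and q-value. The deposited score was not used. Fragments at E2F1 summits were solved from fold and p (relative error at most 2e-05, all peaks solved), with depth read as the lowest background, and the solver was tested on simulated data. TSSs came from GENCODE release 44 (hg38). Python 3.11.15, numpy 2.4.6 and scipy 1.17.1 were used. With 1 library per group no test between conditions was possible, and lists are described by counts beside those of all genes.

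The 7 genes, the pathway lists and the alternatives were chosen with earlier results of these data known. The genes named from the lists were, in each role group, up to 3 with the highest untreated fold (DMSO where none had one) and up to 2 with the highest −log10 q of an H3K27me3 peak in shE2F1 only. BID, HRK, BAX, BAK1, CYCS, CASP10, TP63, RRM2, PCNA, CCNE1 and the check genes ACTB and HOX were named after their values were seen. A gene that the rule names is not reported here. Genes of similar profile left out those within 100 kb and those sharing a peak with the gene.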

Additional observations from a re-analysis of the deposited data

How the results depend on the processing

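No paired analysis was possible because each group holds 1 library. No direction reversed under any alternative. A −log10 q of at least 5 removed all H3K27me3 peaks of the 7 genes, in control shRNA and in shE2F1. This gave 0 genes with a promoter or gene body peak and 0% of the bodies of TP73, BCL2L11 and BBC3 covered. It left 3 other apoptosis genes in control shRNA and 6 in shE2F1. Over all genes with an H3K27me3 promoter peak, the median highest −log10 q was 2.06 in control shRNA and 2.16 in shE2F1, below this cutoff. The share of all genes that pass it was not counted. A TSS window of 500 bp left 0 of the 7 genes with an H3K27me3 promoter peak in control shRNA and 1 GSK126 promoter peak with a motif. A window of 2000 bp gave 10 other apoptosis genes with the mark in control shRNA and 2 DMSO peaks with a motif. Requiring 1 more T before the motif gave 0 in DMSO and 0 in GSK126, and a window of 50 bp around the summit gave 0 in DMSO. When 50% of a peak had to lie inside the gene body, E2F1 was counted at 1, 3 and 4 genes in untreated, DMSO and GSK126, since promoter peaks lie across the gene start. In the other cases the cause was not tested. The motif counts rest on at most 10 peaks. Of the 7 genes, the number with an E2F1 promoter peak stayed within 1.5 times, and the median log2 ratio of GSK126 to DMSO between 0.65 and 0.69, under every alternative run for them. With canonical TSSs only, the number was 6 in DMSO and 6 in GSK126. The difference in presence at CASP8 thus depends on which TSSs are counted.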
